A study of Mus musculus with 16 samples.

Results

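The miR-21 hairpin yields a guide strand, miR-21-5p, which the array lists as mmu-miR-21, and a passenger strand, miR-21-3p, listed as mmu-miR-21*. Both were taken by these 2 names, out of 577 miRNAs on the array, and were followed over all 16 arrays of mouse dorsal skin. The skin came from hairless albino females on a mixed SKH1-C57/Bl6-SV129 background, and every group shared that background. The groups were WT no UV (Ppard+/+, not irradiated), KO no UV (Ppard-/-, not irradiated), WT UV (Ppard+/+) and KO UV (Ppard-/-), with 4 arrays in each. Irradiated mice received UVB at 70 mJ/cm2 on 3 days of each week for 12 weeks. WT and KO mice were littermates, and the methods give 4 animals per group without tying an array to an animal. The general description of the animals gives an age of 8 to 12 weeks. The age at sampling is not stated, and irradiated skin was taken after 12 weeks of exposure. Mice without UV were sham manipulated and of matching age. The series asks how loss of PPARβ/δ and chronic UVB change skin miRNAs, and Ppard mRNA was not measured on these arrays, so the genotype labels could not be checked here.

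A primary miRNA transcript is cut in the nucleus to a hairpin, and Dicer then releases a short duplex from it. One strand of the duplex, the guide, is retained by an Argonaute protein and directs it to matching mRNAs, while the passenger strand is usually discarded and degraded. MiR-21-5p is among the most abundant miRNAs of many adult tissues, is known to repress the tumour suppressor Pdcd4, and is raised in inflamed and neoplastic skin. PPARβ/δ is a lipid-activated nuclear receptor known for its part in keratinocyte survival and skin repair.

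The sequences are shown because they define what each probe could see. The hairpin of Mir21a is 92 bases long and lies on the minus strand of chromosome 11, at chr11:86584067-86584158 on GRCm38.p6 (RefSeq), within the gene Vmp1 in that annotation. In its line the capitals mark the mature strands, at bases 18 to 39 and 56 to 77. In the lines of the mature strands the capitals mark the seed, bases 2 to 8 from the 5′ end. In the last lines the capitals mark the bases that a probe covered, as the coordinates in the files give them. Each line runs 5′ to 3′.
Mir21a hairpin: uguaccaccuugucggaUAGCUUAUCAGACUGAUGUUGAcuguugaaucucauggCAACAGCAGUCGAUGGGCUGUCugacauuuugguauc
miR-21-5p: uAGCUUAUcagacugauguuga
miR-21-3p: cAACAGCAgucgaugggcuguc
miR-21-5p under the longer guide probe: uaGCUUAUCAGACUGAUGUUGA
miR-21-3p under the shortest passenger probe: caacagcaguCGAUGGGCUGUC
miR-21-3p under the longest passenger probe: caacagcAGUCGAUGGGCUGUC
The strands have different seeds. Among the 1738 mature mouse miRNAs of the RefSeq table, mmu-miR-21c alone shares the seed of miR-21-5p, and no other shares that of miR-21-3p. The array lists no miRNA under the name mmu-miR-21c. Array miRNAs absent from the RefSeq table were not searched for these seeds. MiR-21-5p was read by 2 probes that cover its last 20 and 19 bases (A_54_P1307 and A_54_P1308, at chr11:86397622-86397641 and chr11:86397622-86397640 on mm9). MiR-21-3p was read by 4 probes that cover its last 12, 13, 14 and 15 bases and begin at position 86397584 of chromosome 11 on mm9. The longest passenger probe covered 15 bases (A_54_P3447) and so reached only the last base of the seed.

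Total signal per array ranged from 170979 to 395200 units. The scanner software called 184 to 266 of the 577 miRNAs detected, and no spot was saturated. The keratinocyte miRNAs miR-203, miR-205 and miR-200c were detected on all 16 arrays. All arrays of one irradiation state lay on one slide, so irradiation and slide cannot be told apart. Among irradiated samples, row 1 of the slide was WT and row 2 was KO, so genotype and row cannot be told apart under UV. The slide without UV held both genotypes in both rows. The fourth KO UV array stood apart in the agreement of its spots. Over its 96 probes brighter than 1000 units, the median coefficient of variation between spots of a probe was 29.8%, against 4.54% to 9.32% on the other 15 arrays, so the differences of KO UV from WT UV and from KO no UV are also given without it, while group means include it.

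MiR-21-5p was the brightest miRNA on 10 of the 16 arrays and held rank 2 or 3 on the other 6. Its total signal in WT no UV was 22295, 16132, 15170 and 25057 units. In KO no UV it was 11378, 24597, 14961 and 19879 units. The ranges of these groups overlapped. In WT UV it was 27619, 29748, 27475 and 30053 units, and in KO UV 19361, 22707, 20254 and 15018 units. Before any normalization, each WT UV array was thus brighter for miR-21-5p than every array of the other 3 groups. This single miRNA held 4.32% to 12.3% of the summed signal of an array, and KO no UV had the lowest mean (5.37% ± 1.13, SD, n = 4), below KO UV (9.05% ± 1.35), WT no UV (9.12% ± 2.28) and WT UV (10.97% ± 1.11). None of the 5 contrasts of this share passed an exact two-sided permutation test after adjustment over the 5 (lowest adjusted p 0.143). Before adjustment the exact p was 0.0286 for UV in KO, the smallest that 4 against 4 arrays can give, and 0.0857 for KO against WT without UV.

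Arrays differ in overall brightness, so signals were also scaled by each array's 75th percentile, taken over the 167 miRNAs that every array detected. That percentile was 1030 ± 141 units in WT no UV and 1495 ± 175 in KO no UV, and the ranges of these groups did not overlap. It was 1344 ± 162 in WT UV and 1077 ± 30.4 in KO UV. After this scaling miR-21-5p ranked from WT UV (14.70 ± 0.11 on the log2 scale) through WT no UV (14.51 ± 0.28) and KO UV (14.42 ± 0.26) down to KO no UV (13.79 ± 0.40, SD, n = 4 each). Neighbours among the first 3 groups differed by less than the SD of the more variable group. The KO no UV arrays had scaled signals of 10610, 17946, 11660 and 17893 units. The highest of them lay above the lowest array of WT no UV (17890 units) and of KO UV (16993 units).

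**Figure D1:**
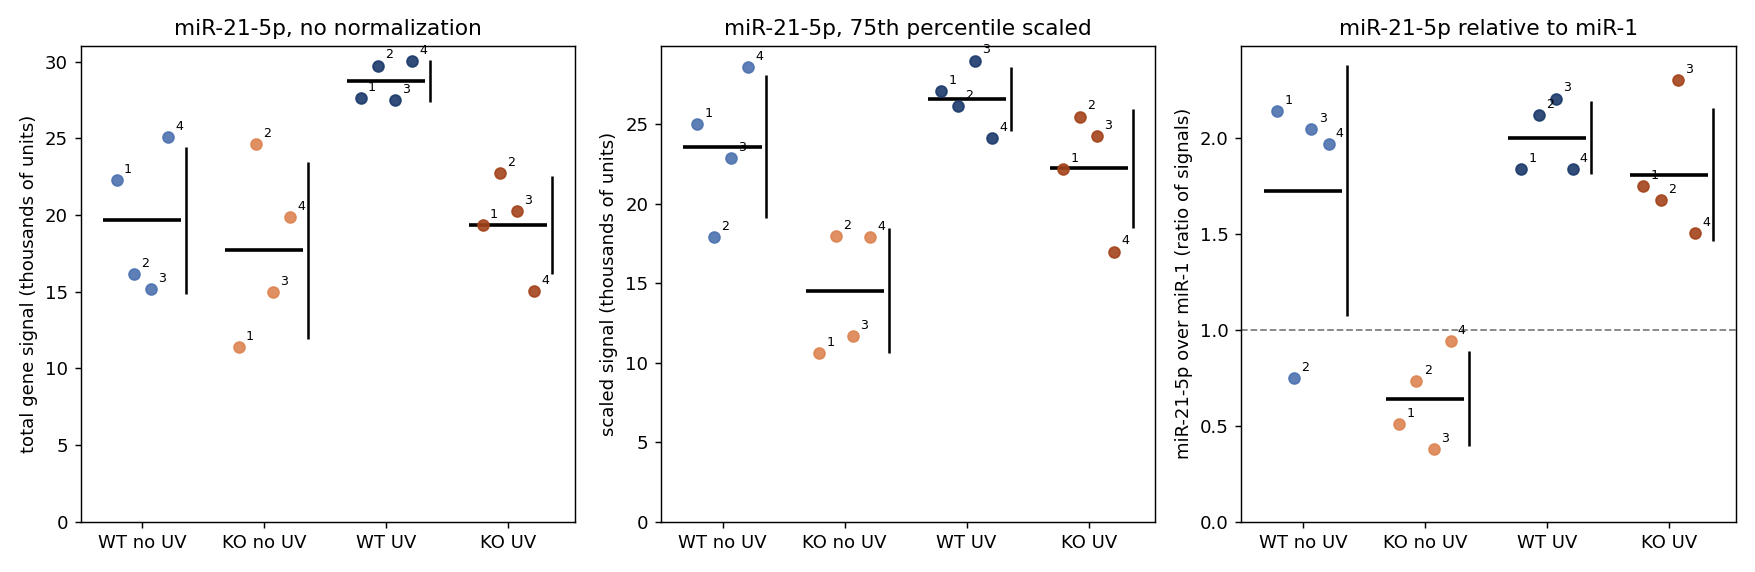
Signal of miR-21-5p on each array, in units of 1000 without normalization (left) and after scaling to the 75th percentile (middle), and its ratio to the signal of miR-1 (right, with a dashed line at 1). Points are arrays marked by replicate number, horizontal lines are group means and vertical lines ± 1 SD (n = 4); the WT UV arrays are brightest on the left, and all KO no UV arrays lie under a ratio of 1 on the right.

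For the model across miRNAs, total signals were quantile normalized, values under a floor of 19.37 units were raised to it, and 228 miRNAs detected on all 4 arrays of a group were fitted with limma. Calls were made where the p-value, adjusted by Benjamini-Hochberg over the 228, was under 0.05. Quantile normalization gives a miRNA the value that belongs to its rank, so miR-21-5p could take few values. Its log2 signal was 14.59 at rank 1, 13.88 at rank 2 and 13.58 at rank 3.

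Under chronic UVB in KO skin miR-21-5p rose by 0.68 on the log2 scale (95% interval 0.29 to 1.07, SE 0.18, limma adjusted p 0.0173). In this contrast 29.8% of the 228 tested miRNAs were called. In WT skin the difference with UVB was 0.18 (−0.22 to 0.57, adjusted p 0.545), in a contrast where 16.2% of miRNAs were called. All 4 WT UV arrays held rank 1, the top of this scale, so with these WT no UV ranks the difference could not be larger. The tie also gave WT UV an SD of 0, against 0.35 in KO UV and in WT no UV. The model pools the spread of the 4 groups, so this 0 enters its intervals and p-values for miR-21-5p on the quantile scale. Percentile scaling, which ranks do not limit, gave 0.19 in WT (−0.23 to 0.61, limma adjusted p 0.527). Without normalization the WT difference was 0.58 (limma adjusted p 0.0775). The interaction, the change with UV in WT less the change in KO, was −0.50 (−1.06 to 0.05, adjusted p 0.497, 2.19% called). Its sign cannot be read on the quantile scale, where the WT change was at its limit. After percentile scaling the interaction was −0.45 (−1.04 to 0.15, limma adjusted p 0.589). Without normalization the interaction was 0.41 (limma adjusted p 0.256). A difference between genotypes in the response of miR-21-5p was thus not shown. Slide and UVB cannot be told apart in any of these values.

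The call in KO skin depended on the normalization. Scaling to the 75th percentile gave 0.64 (0.22 to 1.06, adjusted p 0.0320). Without normalization the difference was 0.17 (adjusted p 0.544), and with only the KO arrays in the fit it was 0.61 (adjusted p 0.0556). Slide row as a covariate gave 0.59 (adjusted p 0.0731). Each UV group lay in a single row, so that row effect came from the slide without UV alone and cannot adjust for rows of the UV slide. With array 3 of KO no UV left out it was 0.61 (adjusted p 0.0538), and without the fourth KO UV array 0.88 (adjusted p 0.00186). With percentile scaling, 5 of 16 fits with an array omitted lost the call, and without the fourth KO UV array it was 0.81 (adjusted p 0.0127).

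Between genotypes without UVB, miR-21-5p in KO skin was lower by 0.68 on the quantile log2 scale (difference −0.68, −1.07 to −0.29) but did not pass the adjusted threshold (limma adjusted p 0.0635). WT no UV and KO UV held the same set of ranks, so this size equals that of the UV difference in KO and is not a separate estimate. No miRNA was called in this contrast (0% of 228; 36 had an unadjusted p under 0.05, and limma on percentile-scaled values called 3). Percentile scaling gave −0.72 for miR-21-5p (−1.14 to −0.30, adjusted p 0.0733), whereas unnormalized signals gave −0.18 (adjusted p 0.497). Within row 1 of that slide the scaled difference was −0.62 and within row 2 it was −0.82 (2 arrays per genotype each). The call turned on the second WT no UV array, and without it the quantile difference was −0.87 (adjusted p 0.00545) and the scaled difference −0.85 (adjusted p 0.0204). The scaled difference also passed without the fourth KO no UV array (−0.83, adjusted p 0.0486).

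Between genotypes under UVB, KO minus WT was −0.18 (−0.57 to 0.22, limma adjusted p 0.913) on the quantile scale and −0.27 (−0.70 to 0.15, adjusted p 0.841) after percentile scaling. In that contrast 2.19% of the tested miRNAs were called. Without normalization the difference was −0.59 (adjusted p 0.231), and there the groups did not overlap. Leaving out the fourth KO UV array brought the quantile difference to 0 and the scaled one to −0.10 (adjusted p 1 in both). On every remaining UV array miR-21-5p was the brightest miRNA, so the quantile values tied and could show no difference. MiR-103, a qPCR reference miRNA of the study, differed by −0.01 between genotypes without UVB and by 0.16 under UVB on the quantile log2 scale (adjusted p 1 and 0.223). With UVB it fell by 0.23 in WT (adjusted p 0.00683), and it differed by −0.06 in KO (adjusted p 0.363). After percentile scaling the difference in WT was −0.22 and was not called (adjusted p 0.0579).

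**Figure D2:**
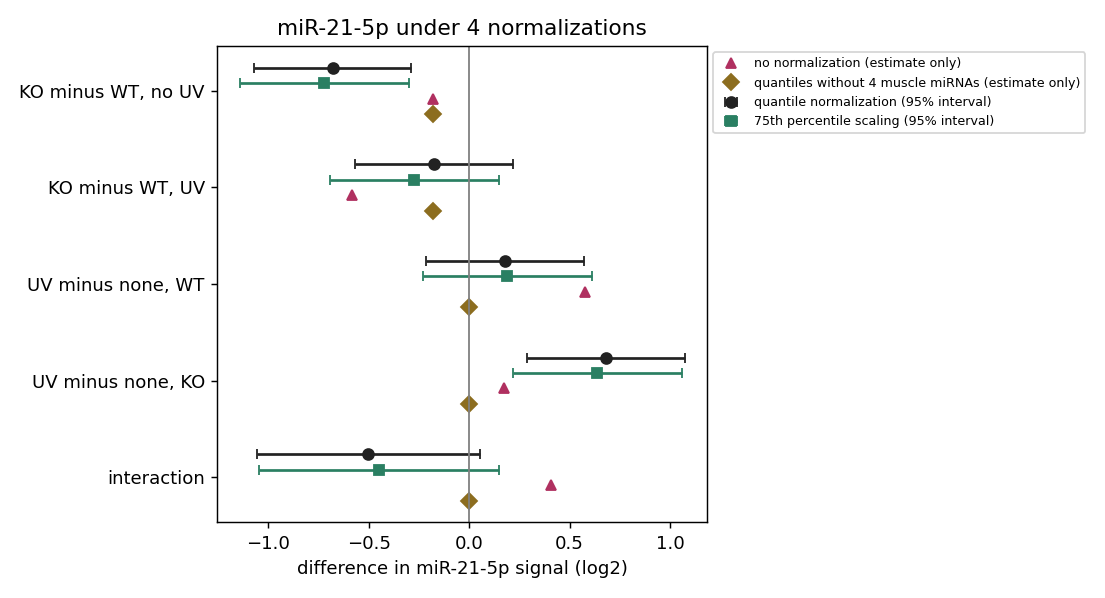
Differences in miR-21-5p on the log2 scale (horizontal axis) for the 5 contrasts, where the interaction is the change with UV in WT less the change in KO. Circles and squares are limma estimates with 95% intervals after quantile normalization and 75th percentile scaling, and triangles and diamonds are estimates alone without normalization and with quantiles after leaving out 4 muscle miRNAs; the last sit at 0 for both UV contrasts.

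The miRNA that displaced miR-21-5p from the first rank was mostly miR-1, a miRNA of striated muscle. MiR-1 was above miR-21-5p on all 4 KO no UV arrays and on the second WT no UV array, and on no other. The signal of miR-21-5p was 0.641 ± 0.249 times that of miR-1 in KO no UV, against 1.73 ± 0.65 times in WT no UV, 1.81 ± 0.34 times in KO UV and 2.003 ± 0.191 times in WT UV (SD, n = 4 each). These are ratios of signals of different probes, and not of molecules. MiR-133b, also of muscle, and miR-23a each exceeded miR-21-5p on a single KO no UV array, and miR-203 did so on the fourth KO UV array.

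All 4 skeletal muscle miRNAs of the marker list (miR-1, miR-133a, miR-133b and miR-206) were detected on every array. Their summed scaled signal was 38114 to 57475 units in KO no UV, 20230 to 44865 in WT no UV, 20261 to 24435 in WT UV and 18411 to 24614 in KO UV. They held 16.8% ± 3.19 of the array signal in KO no UV, against 10.7% ± 3.21 in WT no UV, 8.49% ± 0.77 in KO UV and 9.10% ± 0.51 in WT UV. When they were left out before quantile normalization, the UV difference of miR-21-5p in KO became 0 (limma adjusted p 1) and KO minus WT without UVB became −0.18 (adjusted p 0.752). The quantile value was then the top one, 14.39, except on the first KO no UV and the fourth KO UV array (13.67). The 0 is thus a tie of ranks. When the muscle miRNAs were left out before percentile scaling, the same differences were 0.65 (adjusted p 0.0326) and −0.71 (adjusted p 0.0887). The share of miR-21-5p in the array signal without those miRNAs was 6.43% ± 1.18 in KO no UV against 10.2% ± 2.38 in WT no UV, 9.89% ± 1.48 in KO UV and 12.1% ± 1.24 in WT UV.

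Markers of leukocytes, which are known to carry miR-21, were also uneven. All 5 of them were detected on every array, and their summed scaled signal was 5083 to 5944 units in WT no UV and 2609 to 4772 in KO no UV, with 3359 to 4287 in WT UV and 2732 to 3423 in KO UV. The 3 keratinocyte miRNAs summed to 18223 to 26094, 18758 to 26352, 20096 to 28175 and 26446 to 31168 units in the same order of groups, so the KO UV range lay above both ranges without UV. The fibroblast and vessel list (5 of 6 members on the array, all detected on every array) and the erythrocyte list (2 of 3 members detected on every array) had ranges that overlapped between all groups. The part of leukocytes and keratinocytes in the miR-21 values was not tested, and in whole skin fewer cells of a type and less RNA per cell cannot be told apart.

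The guide probes were examined separately, on mean processed spot signals. The 20-base probe averaged 31555 ± 1326 units in WT UV, 21453 ± 4985 in KO UV, 19971 ± 4893 in WT no UV and 18189 ± 6071 in KO no UV (SD, n = 4 each). The 19-base probe averaged 14898 ± 936, 10064 ± 1109, 10434 ± 2378 and 9483 ± 3089 units in the same order. One more base at the 5′ side of the target thus went with 1.38 to 2.61 times the signal, with a median of 2.02 over the 16 arrays. All 320 guide spots were well above background. The lowest ratio came from the fourth KO UV array, where the 10 spots of the 20-base probe ran from 420 to 23257 units before background subtraction and those of the 19-base probe from 2191 to 13338.

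In limma on quantile-normalized probe values (380 probes tested), both guide probes rose with UVB in KO skin, by 0.75 (adjusted p 0.0141) for the 20-base probe and by 0.70 (adjusted p 0.0109) for the 19-base probe, where 27.1% of probes were called. Without the fourth KO UV array these differences were 0.95 (adjusted p 0.00211) and 0.68 (adjusted p 0.0177). Without UVB, KO minus WT was −0.75 for each (adjusted p 0.0650 for each; no probe was called, 0% of 380, with 67 at an unadjusted p under 0.05, and none after percentile scaling). Neither passed in the other contrasts, in which 16.8% (UV in WT), 1.32% (KO against WT under UVB) and 0.526% (interaction) of probes were called. The probes share their target, their array and all but 1 base, so they are not independent replicates. Leaving out the second WT no UV array raised the number of called probe tests from 2 to 4 of 10, as both probes then passed between genotypes without UVB.

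**Figure D3:**
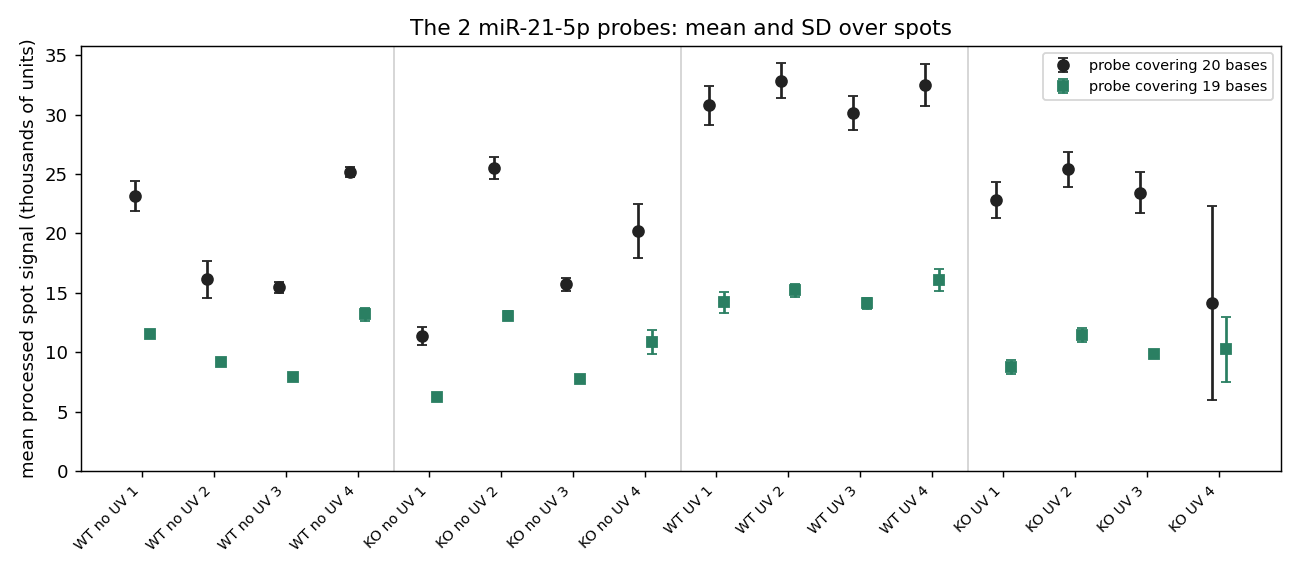
Mean processed spot signal of the 2 miR-21-5p probes on each of the 16 arrays (vertical axis, units of 1000), with bars for ± 1 SD over the spots used on that array. The 20-base probe is brighter than the 19-base probe on every array, and the fourth KO UV array has by far the widest bars.

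MiR-21-3p was close to the detection limit. Its total signal in WT no UV was 9.15, 7.37, 3.48 and 13.3 units, with a software error of 2.68 to 3.67 units. In KO no UV it was 8.43, 11.6, 2.60 and 8.80 units. The ranges of these groups overlapped, and the software called the strand detected on 2 of the 4 arrays of each. In WT UV it was 7.29, 9.06, 9.83 and 9.87 units, with an error of 5.09 to 5.99 units and 1 array of 4 detecting it. In KO UV it was −0.919, 2.83, 3.75 and 2.55 units, with 0 of 4 arrays detecting it. Each KO UV array was under each WT UV array, yet on every KO UV array the signal was smaller than its own software error (4.77 to 6.06 units). Spots of negative controls had an SD of 4.14 to 6.91 units on the arrays without UV and of 9.76 to 11.6 on those with UV, so the limit of detection differed between the slides. The lowest signal called detected was 2.40 to 5.51 units on the former and 9.83 to 15.2 on the latter.

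After quantile normalization miR-21-3p averaged 9.15 ± 3.38 units in WT no UV and 9.04 ± 1.59 in WT UV, against 5.99 ± 2.47 in KO no UV and 1.79 ± 2.13 in KO UV (SD, n = 4 each). All 16 values lay under the floor used for the log2 scale, so the strand was compared in signal units. KO minus WT under UVB was −7.25 units (exact two-sided permutation p 0.0286, the smallest that 4 against 4 arrays can give, and 0.143 after adjustment over the 5 contrasts). The direction held in every array, and no fold is given because KO UV lay within its error of 0. Leaving out the fourth KO UV array gave −7.42 units (exact p 0.0286, adjusted 0.143). Without UVB the genotypes differed by −3.16 units, KO minus WT (exact p 0.257, adjusted 0.363), and by −0.461 units without normalization. UV minus none was −0.113 units in WT (exact p 0.943) and −4.21 in KO (exact p 0.0571, adjusted 0.143), where it was −4.33 without the fourth KO UV array (exact p 0.0857). The interaction was 4.09 units (exact permutation p 0.290, adjusted 0.363), and 6.50 without normalization (exact permutation p 0.0906). A rise of miR-21-3p with chronic UVB in WT skin was not detectable on these arrays.

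The signal assigned to miR-21-3p came from its longer probes. In WT no UV the 12-base probe averaged −1.27 units, the 13-base probe 0.125, the 14-base probe 10.7 ± 3.68 and the 15-base probe 16.2 ± 7.60 (SD, n = 4). In WT UV the 15-base probe averaged 23.4 ± 3.94 units, in KO no UV 14.96 ± 5.48 and in KO UV 9.04 ± 6.49. It was the brightest of the 4 on all 16 arrays, and the 14-base probe was above the 13-base probe on 15 of them. The 12-base and 13-base probes had no set order, with the 13-base above the 12-base probe on 8 of 16 arrays.

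Only 7 of the 320 passenger spots were well above background. Taken alone, the 15-base probe gave 19.98, 20.03, 25.8 and 27.6 units in WT UV and 2.23, 14.1, 15.02 and 4.76 in KO UV, so these groups did not overlap (exact p 0.0286, adjusted 0.571 over 4 probes and 5 contrasts). On the first KO no UV array the software had set aside 1 of the 5 spots of this probe, at 624 units, and the remaining 4 averaged 12.5 units. The other 3 probes gave exact p values of 0.229 to 0.686 for the same contrast. UV minus none in WT was 7.19 units for the 15-base probe (exact p 0.114) and −2.86 for the 13-base probe (exact p 0.343), so the sign depended on the probe.

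A climb of signal with probe length can also be looked for where a miRNA is not seen. Of 292 miRNAs detected on no array, 185 had 4 probes spaced 1 base apart. Their longest probe exceeded the shortest by a median of 1.78 units, and by 15.2 at most (each a median over arrays). The same difference for miR-21-3p had a median of 20.1 units and ran from 3.03 to 32.6. As miR-21-3p was called detected on 5 arrays, it differs from that set by selection, and the figures are a description.

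**Figure D4:**
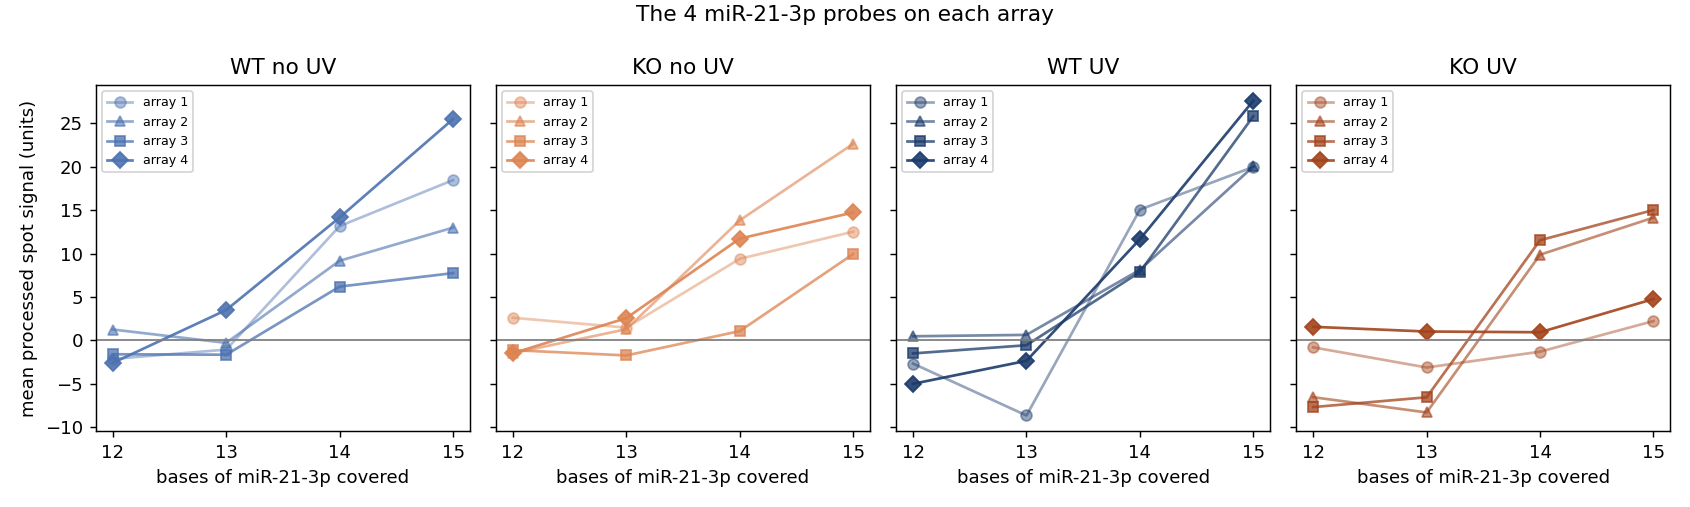
Mean processed spot signal (vertical axis, units, with a line at 0) of the 4 miR-21-3p probes against the number of bases each covers, in a panel per group with a line per array. Signals stay near or under 0 at 12 and 13 bases and climb at 14 and 15, and arrays 1 and 4 of KO UV stay low throughout.

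The passenger strand is given as a percent of the guide signal of the same array, which needs no scaling between arrays. It is a ratio of signals of unlike probes and not of molecules, and its size was set by a numerator near background. In WT no UV it was 0.0410%, 0.0457%, 0.0229% and 0.0529%. In KO no UV it was 0.0741%, 0.0470%, 0.0174% and 0.0443%. In WT UV it was 0.0264%, 0.0305%, 0.0358% and 0.0328%, and in KO UV −0.00475%, 0.0124%, 0.0185% and 0.0170%. The first 3 groups overlapped, and the 4 KO UV arrays lay under all WT UV arrays. The software error of a single value was 0.0127% to 0.0397%, and the intervals of ± 1 software error of each WT UV and each KO UV array overlapped.

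The percent averaged 0.0457 ± 0.0232 in KO no UV and 0.0406 ± 0.0128 in WT no UV, then 0.0314 ± 0.00397 in WT UV, with the lowest mean of 0.0108 ± 0.0107 in KO UV (SD, n = 4 each). KO minus WT under UVB was −0.0206 percentage points (exact permutation p 0.0286, adjusted 0.143 over the 5 contrasts). With each passenger signal raised to its software error where it was under it, the same difference was −0.00232 (exact p 0.6). UV minus none was −0.0349 in KO (exact p 0.0571, adjusted 0.143) and −0.00927 in WT (exact p 0.2, adjusted 0.25). KO minus WT without UVB was 0.00507 (exact p 0.83), and the interaction was 0.0256 (exact permutation p 0.101, adjusted 0.169). Without the fourth KO UV array KO minus WT under UVB was −0.0226 (exact p 0.0286, adjusted 0.143) and UV minus none in KO −0.0370 (exact p 0.0857). With array 3 of KO no UV left out the interaction was 0.0351 and the UV difference in KO −0.0443 (adjusted exact p 0.0327 and 0.0476), and KO minus WT under UVB, itself the same, had an adjusted p of 0.0476. Without the first KO no UV array KO minus WT without UVB turned to −0.00440, and without array 3 of WT no UV to −0.000836.

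On arrays that detected miR-21-3p the guide was 1349 to 2795 times as bright. Where it was not detected only a bound is possible. Each such array was counted at its lowest detected signal, or at its passenger signal where that was higher, and the mean guide signal of KO UV was then at least 1629-fold the mean passenger signal, with bounds of 1293 to 2031 on its single arrays. Another 55 miRNAs had a named passenger strand on the array and a guide detected on all 16 arrays. Of these 56 pairs, 30 had a passenger detected on at least 1 array, 10 of them on all arrays, and 26 had it detected on none. The median percent over arrays was 0.0317 for miR-21, which ranked 22 from the lowest of the 56 (median 0.260, with 34 pairs under 1%) and 3 from the lowest of the 30 with a passenger detected on any array (median 2.01). These ranks compare signals of different probes, many of them near background, and are a description.

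**Figure D5:**
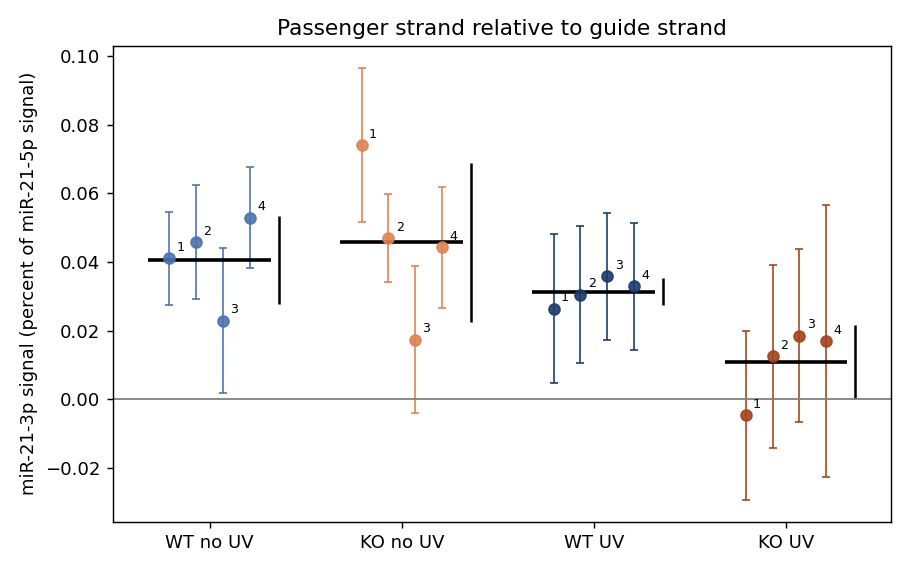
MiR-21-3p signal as a percent of miR-21-5p signal on each array (vertical axis, with a line at 0). Points are arrays marked by replicate number with the software error of the passenger signal as bars, horizontal lines are group means and black vertical lines ± 1 SD (n = 4); the KO UV arrays lie under all WT UV arrays, with overlapping error bars.

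Over the 8 arrays without UV, the strands rose and fell together before scaling (Pearson r 0.738, exact permutation p 0.0393; Spearman rho 0.857, exact p 0.0107, adjusted 0.0619 and 0.0286), and r was 0.917 without the 2 arrays farthest from the median guide signal. After percentile scaling r was 0.705 (exact p 0.0465) and rho 0.690 (exact p 0.0694), with r of 0.667 without those arrays. Of the 8 relations computed in this family, 2 slides by 2 scales by 2 measures, the scaled r and rho had adjusted p of 0.0619 and 0.0694. The arrays share overall brightness and mix genotypes. On the UV slide the genotypes formed separate clusters of 4, so no pooled value is given.

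Among 166 other miRNAs detected on all 16 arrays, those whose percentile-scaled log2 signal was most like that of miR-21-5p were miR-34a (Pearson r 0.862), miR-214 (0.847), miR-7a (0.811), miR-155 (0.808) and miR-140 (0.800), against a median r of −0.055. MiR-34a is a p53-induced miRNA and miR-155 is an inflammatory miRNA of leukocytes. Each of the 5 was lowest in KO no UV, as miR-21-5p was. MiR-155, for example, averaged 5.71 ± 0.26 there and 6.16 ± 0.28 in WT no UV on the scaled log2 scale (SD, n = 4 each). UV minus none in KO skin was 0.32 (miR-214) to 1.02 (miR-7a) for the 5 on the quantile log2 scale. These values are a description with no test, since the 5 were chosen for their likeness to miR-21-5p over the same arrays, which share slides and scaling.

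Of 13 other miRNAs of skin inflammation and wounds, 12 were tested. With UVB in KO skin 6 rose and 0 fell, with a median difference of 0.14 against 0 over all tested miRNAs and 29.8% called in all. MiR-31, which is induced in wound and psoriatic epidermis, rose by 1.30 (limma adjusted p 0.00328), miR-146b by 0.71 (0.00922) and the keratinocyte miRNA miR-205 by 0.32 (0.0234). In WT their mean log2 signals were 9.16, 8.92 and 13.18 without UV and 9.88, 9.34 and 13.22 with UV. With UVB in WT skin 0 rose and 3 fell (median −0.06 against 0, 16.2% called in all). Those were miR-221 (by 1.32, adjusted p 2.30e-04), miR-222 (by 1.30, adjusted p 5.99e-04) and miR-146a (by 0.45, adjusted p 0.0468). In KO their mean log2 signals were 9.44, 7.43 and 9.41 without UV and 8.98, 6.95 and 9.19 with UV. In KO minus WT without UVB none of the 12 was called, and their median was −0.40 against 0. MiR-221 had the smallest p there, with a difference of −0.66 (adjusted p 0.0635). In KO minus WT under UVB and in the interaction none was called, with medians of 0.07 and −0.29.

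Of 13 miRNAs linked to TGF-beta signalling, 12 were on the array and tested. With UVB 4 rose and 2 fell in WT skin, and 5 rose and 3 fell in KO skin, with medians of 0.16 and 0.04 against 0 over all tested miRNAs, of which 16.2% were called in WT and 29.8% in KO. The epithelial miRNA miR-200c rose by 0.83 in WT (limma adjusted p 9.88e-04) and by 0.80 in KO (0.00249), and miR-141 rose by 0.80 in WT (0.00120). MiR-145, a miRNA of smooth muscle and fibroblasts, fell by 1.66 in KO (2.65e-04). In WT the mean log2 signal of miR-145 was 6.71 without UV and 5.77 with UV. That of miR-141 in KO was 9.38 without UV and 9.82 with UV. None was called between genotypes or in the interaction, with medians of 0.12 (KO minus WT without UVB), −0.04 (KO minus WT under UVB) and 0.10 (interaction). Contrasts that share a group of arrays are not independent of each other.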

How the data were processed

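RNA of 16 samples was labelled with Cy3 and hybridised 1 sample to an array. The deposited scanner files hold intensity on a linear scale, background-subtracted by Agilent Feature Extraction 9.5.3.1 and not normalized between arrays. The authors' own normalized log2 signals, deposited as a series table, served as an alternative. Here total gene signals were quantile normalized, with a floor at 19.37 units (percentile 5 of detected signals, as a median across arrays). Groups came from the sample labels. Group means of 228 miRNAs and 380 probes were fitted with limma 3.58.1 (R 4.3.3) and adjusted by Benjamini-Hochberg. The model was tested on simulated data. MiR-21-3p and strand percents had exact permutation tests (Python 3). Percentile scaling was to the 75th percentile.

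The members and lists were chosen with earlier results of these data known. Named were both strands, seed sharers, the 5 miRNAs most like miR-21-5p, miR-103, and up to 3 list members with the smallest p. Scans without the 4 muscle miRNAs and of single passenger probes were chosen after seeing the data. Replicate numbers were not taken as pairs, and the labels state no pairing. Same-numbered arrays correlated at −0.348 to 0.378 in their deviations. Arrays of different number were not compared in this way, so these values cannot decide whether the numbers mark pairs. The number of arrays limits the precision, and p-values measure the spread between these arrays.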

Additional observations from a re-analysis of the deposited data

Results flagged for a closer look

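In KO no UV the first array stood apart for the passenger probe that covers 12 bases (A_54_P3444), at 2.61 units against −1.48 to −1.12 on the other 3 arrays. Its gap to the nearest array was 0.912 of the group's range which exceeds Dixon's 95% limit for 4 values. It was the only such value among 36 groups of 4 arrays examined (9 measures of miR-21 in 4 groups), and chance marks about 1 in 20. All 4 values lay within the spread of the negative control spots.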

How the results depend on the processing

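For miR-21-5p, the UV difference in KO lost its call with no normalization (0.17), with only the groups compared in the fit (0.61), with slide row as a covariate (0.59), in the exact test of scaled values (0.64, adjusted p 0.143, where 4 against 4 arrays allow no lower p than 0.0286) and, chosen after seeing the data, with quantiles that leave out the 4 muscle miRNAs (0, as were UV in WT and the interaction). Those values of 0 came from tied ranks. The row covariate was estimated on the slide without UV alone. The interaction reversed with no normalization (0.41). The other alternatives for miR-21-5p turned no direction and changed no call, with a fit without a filter that limma marked as unreliable among them. For miR-21-3p, limma on log2 values with a floor of 1 unit called KO minus WT under UVB (−2.17, adjusted p 0.0271) and UV in KO (−1.46, adjusted p 0.0309), on signals within their error of 0. UV in WT reversed in that fit (0.0373), with spot means (0.0356 units), with no normalization (0.70), and, chosen after seeing the data, with the 14-base probe (0.0094), the 15-base probe (7.19) and the mean of both (3.60). KO minus WT without UVB reversed with the 12-base (0.90) and 13-base probes (0.77). Raising passenger signals to their software error moved the percent of guide under UVB (KO minus WT) to −0.00232, UV in KO to −0.0176 and the interaction to 0.00836 percentage points, and the longest passenger probe over both guide probes, chosen after seeing the data, moved them to −0.0456, −0.0549 and 0.0534, with no call. Spot means moved KO minus WT without UVB to 0.00105. The cause was not tested.

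Leaving out each array in turn, miR-21-5p differed by −0.87 to −0.61 (KO minus WT, no UV), −0.24 to 0 (KO minus WT, UV), 0 to 0.23 (UV in WT), 0.61 to 0.88 (UV in KO) and −0.70 to −0.44 (interaction). The values of 0 came from tied ranks. MiR-21-3p differed by −4.28 to −1.70, −8.21 to −6.52, −1.22 to 1.34, −5.26 to −3.39 and 3.01 to 5.53 units, reversing for UV in WT without the first WT UV array (0.60) and, in WT no UV, without array 1 (0.122) or array 4 (1.34). The percent of guide differed by −0.0044 to 0.0145, −0.0231 to −0.0154, −0.0152 to −0.0052, −0.0443 to −0.0254 and 0.0162 to 0.0351 percentage points. Called guide probe tests numbered 2 to 4 of 10.

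With replicate number as a block, the UV difference of miR-21-5p in KO stayed at 0.68 (limma adjusted p 0.0359) on the quantile scale and 0.64 (0.0612, no longer called) on the scaled one, and 2 of 10 guide probe tests were called. KO minus WT under UVB for miR-21-3p was −7.25 units in the paired exact test (p 0.125, the smallest that 4 pairs can give), and −0.0206 points for the percent. The block changed no other call. Same-numbered arrays correlated over 0.1 in 15 of 24 pairs.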
